A study of Mus musculus with 9 samples.

Results

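The cadherins and protocadherins were examined in RNA-seq read counts of 3 populations of sorted mouse lung cells. Every row of the deposited table whose symbol is Cdh followed by a number, or begins with Pcdh, was taken, apart from Cdh5. Cdh5, the endothelial cadherin, serves here as a marker of the endothelium. The rule found 91 genes of 19348 in the table: 22 Cdh genes, 12 non-clustered protocadherins, and 13 alpha, 22 beta and 22 gamma protocadherins. All 9 libraries came from lungs of C57BL/6J mice of the genotype Col1_GFP;Foxf1_tdTomato, which carry a green reporter for type 1 collagen and a red reporter for Foxf1. DBL cells were sorted as positive for both reporters, TDonly cells as positive for Foxf1_tdTomato alone, and ColGFP cells as positive for Col1_GFP alone, with 3 libraries per population. The labels state no age, sex, sort gate or number of animals per library. Since nothing says that libraries of a population came from separate animals, p-values reflect variation among these libraries, which may be technical.

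Cadherins are calcium-dependent adhesion proteins of the cell surface. Classical cadherins bind the same cadherin on the neighbouring cell and hold actin through beta-, p120 and alpha-catenin at adherens junctions. Epithelia are known for E-cadherin, endothelium for VE-cadherin, and fibroblasts for N-cadherin and cadherin 11. Protocadherins share the extracellular repeats but not the catenin-binding tail. The non-clustered delta protocadherins have conserved cytoplasmic motifs and are best known from the nervous system. The alpha, beta and gamma protocadherins lie in tandem arrays, in which each variable exon has its own promoter. Alpha and gamma transcripts splice that exon to constant exons shared by the whole array, whereas each beta gene is a single exon.

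Promoter windows were available for 7 of the members described individually below, covering 250 bases before to 50 bases after the annotated start (RefSeq, GRCm38.p6). Windows of 4 of them are shown because these genes represent the patterns among the non-clustered members: Pcdh17 was highest in TDonly cells, Pcdh7 and Pcdh19 were lowest there, and Cdh22 was lowest in TDonly and highest in ColGFP cells. They are written 5′ to 3′ on the strand of the gene, with each CG dinucleotide in capitals.
Pcdh17: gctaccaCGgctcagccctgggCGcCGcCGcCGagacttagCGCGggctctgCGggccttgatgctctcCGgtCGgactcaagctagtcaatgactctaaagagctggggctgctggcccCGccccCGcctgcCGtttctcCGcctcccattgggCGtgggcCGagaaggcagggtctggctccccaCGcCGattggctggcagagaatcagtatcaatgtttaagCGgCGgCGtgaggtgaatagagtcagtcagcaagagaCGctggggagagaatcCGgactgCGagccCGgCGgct
Pcdh7: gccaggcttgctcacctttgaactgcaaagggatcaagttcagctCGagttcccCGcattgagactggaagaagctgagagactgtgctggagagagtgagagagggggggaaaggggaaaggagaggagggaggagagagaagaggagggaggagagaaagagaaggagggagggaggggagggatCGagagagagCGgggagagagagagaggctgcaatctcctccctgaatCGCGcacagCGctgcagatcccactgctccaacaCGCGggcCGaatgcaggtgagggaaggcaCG
Pcdh19: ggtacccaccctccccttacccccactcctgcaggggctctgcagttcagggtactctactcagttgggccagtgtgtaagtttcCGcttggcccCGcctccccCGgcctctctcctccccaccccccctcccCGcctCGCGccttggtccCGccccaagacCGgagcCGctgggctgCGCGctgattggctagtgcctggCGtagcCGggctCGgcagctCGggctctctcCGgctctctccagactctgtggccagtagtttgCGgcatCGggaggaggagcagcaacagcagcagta
Cdh22: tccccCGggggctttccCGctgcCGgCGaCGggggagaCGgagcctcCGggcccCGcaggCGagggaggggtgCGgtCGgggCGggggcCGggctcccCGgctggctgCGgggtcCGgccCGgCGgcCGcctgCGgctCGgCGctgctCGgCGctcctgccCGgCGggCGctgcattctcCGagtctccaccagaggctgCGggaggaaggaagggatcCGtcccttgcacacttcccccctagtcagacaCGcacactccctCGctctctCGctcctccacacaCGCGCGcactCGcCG
The windows are chr14:84443313-84443612 on the plus strand, chr5:57717831-57718130 on the plus strand, chrX:133688944-133689243 on the minus strand and chr2:165234688-165234987 on the minus strand. They hold 26, 11, 18 and 38 CG dinucleotides in that order, and 65.0%, 59.3%, 67.7% and 76.3% of their bases are G or C. The median of all 32851 mouse windows was 7 CG dinucleotides and 52.7% G or C, and 41.4% of all windows held at least the 11 of Pcdh7. Both strands were searched for 3 motifs. The E-box CACCTG occurred once in the Pcdh7 window, in no window of the other 6 genes and in 20.2% of all windows. The forkhead motif GTAAACA occurred in none of the windows of these 7 genes and in 3.65% of all windows. The ETS motif CCGGAA likewise occurred in none of the 7 and in 14.9% of all windows. No motif overlapped another one in these windows, and a match of letters is a description only.

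Total counts were 17820969 to 26147475 per library, of which the 91 genes took 0.192% to 0.252%. A count of 3, used as the floor, corresponds to 0.114 to 0.181 CPM, the count scaled by library size. Libraries numbered replicate 1 have lower numbers in their column names than the others and differed from them: comparing 2 libraries of a population, chi-square divided by its degrees of freedom was 53.8 to 98.8 for pairs with replicate 1 and 5.32 to 14.6 for the other pairs. No label calls these numbers a batch, so the 6 other libraries are called the second series below. The sort genes followed the labels on average: Foxf1a, the table's symbol for Foxf1, averaged 101, 246.5 and 59.7 CPM in DBL, TDonly and ColGFP cells, and Col1a1 averaged 11670, 1144 and 7904 CPM. All CPM values are scaled with TMM factors (the trimmed mean of M-values). In pooled RNA of sorted cells, fewer cells of a type and less RNA per cell cannot be told apart.

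Of the 91 genes, 70 had enough counts to be tested. In DBL against ColGFP cells, 5 were higher and 13 lower (edgeR quasi-likelihood test, adjusted p below 0.05 over all 15550 genes tested). Over all genes tested, 14.5% differed in this comparison, 8.04% higher and 6.47% lower. In DBL against TDonly cells, 22 members were higher and 8 lower, where 29.9% of all genes differed, 17.3% higher and 12.6% lower. In TDonly against ColGFP cells, 7 were higher and 41 lower, where 45.5% of all genes differed, 21.6% higher and 24.0% lower. The members' median log2 fold changes were -0.35, 0.25 and -0.66 in the 3 comparisons, and those of all genes tested were -0.0032, -0.04 and 0.02. The comparisons share their libraries in pairs, and each library enters 2 of them.

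The clustered genes were 46 of the 70 members tested and gave 30 of the 41 lower calls in TDonly against ColGFP cells. These were 19 of 21 beta genes and 11 of 22 gamma genes. Of 46 clustered members tested, 2 were higher and 30 lower in TDonly than in ColGFP cells, with a median log2 fold change of -0.70. With library totals in place of TMM factors, 4 were higher and 25 lower, and that scaling moved the median of all genes by 0.15 in this comparison. Of 24 members outside the clusters, 5 were higher and 11 lower. In the second series alone, 8 members were higher and 27 lower in DBL than in ColGFP cells, beside 16.3% higher and 12.6% lower of all genes tested there.

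**Figure D1:**
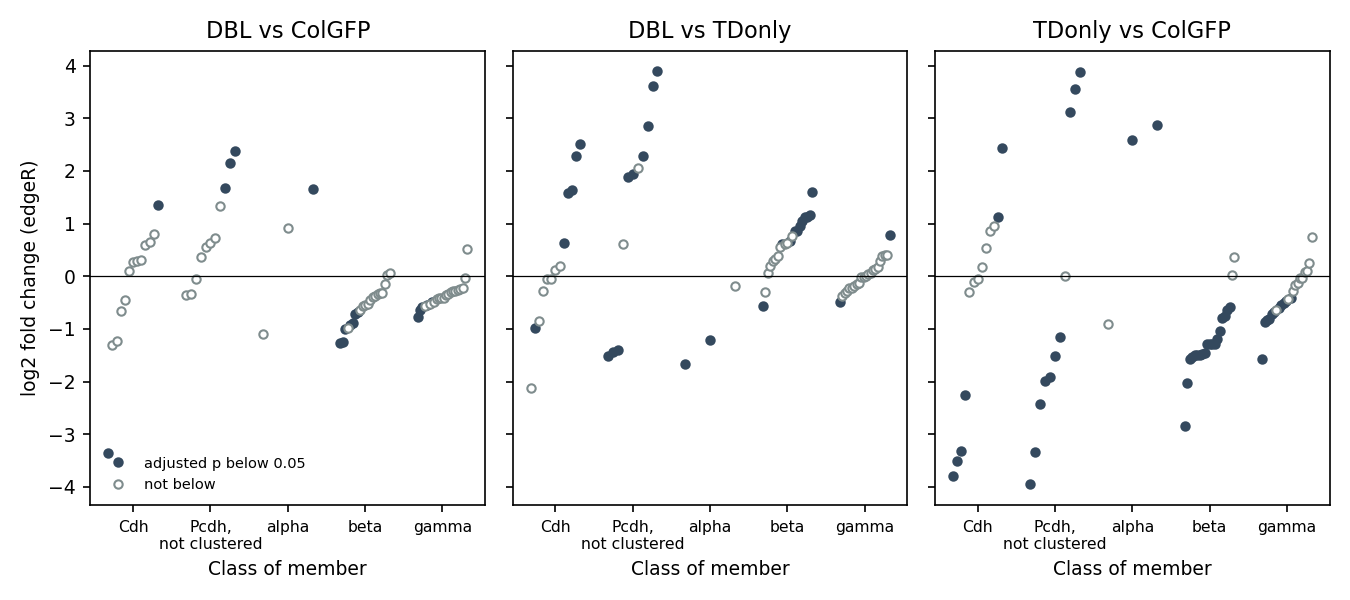
Log2 fold change (edgeR, vertical axis) of each tested cadherin and protocadherin by class (horizontal axis), in 3 panels for DBL against ColGFP, DBL against TDonly and TDonly against ColGFP; filled points have an adjusted p below 0.05. In TDonly against ColGFP cells 19 of 21 beta genes lie filled below 0, whereas non-clustered protocadherins lie at both ends, from -3.95 to 3.88.

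Among the protocadherins, 4 were highest in TDonly cells, lowest in ColGFP cells and called in all 3 comparisons. Pcdh1 (chr18:38185914-38212053, minus strand, GRCm38), a delta-1 protocadherin of endothelium and airway epithelium, had 319, 257 and 280.3 CPM in DBL libraries, 853, 799.5 and 779 CPM in TDonly libraries and 62.3, 54.1 and 48.4 CPM in ColGFP libraries. The 3 populations did not overlap. Its log2 fold change was 2.38 ± 0.13 (SE) in DBL against ColGFP cells (edgeR adjusted p = 1.03e-05), -1.51 ± 0.13 in DBL against TDonly cells (adjusted p = 7.06e-05) and 3.88 ± 0.14 in TDonly against ColGFP cells (adjusted p = 1.84e-07). Pcdh12 (chr18:38267089-38284402), known as vascular endothelial cadherin 2, had 73.8, 70.0 and 71.8 CPM in DBL, 189.7, 184.7 and 193.7 CPM in TDonly, and 14.3, 17.5 and 16.5 CPM in ColGFP libraries. It was 4.46-fold higher in DBL than in ColGFP cells and 2.63-fold lower in DBL than in TDonly cells, again without overlap (edgeR adjusted p = 1.03e-05 and 5.34e-05).

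Pcdh17 (chr14:84443563-84539002), a delta-2 protocadherin, had 159.6, 153 and 133 CPM in DBL, 433, 397 and 374 CPM in TDonly, and 52.7, 43.4 and 42.7 CPM in ColGFP libraries. Every DBL library lay between the other populations, 3.21-fold above ColGFP and 2.71-fold below TDonly cells on the fitted scale (edgeR adjusted p = 3.07e-05 and 7.04e-05). Pcdhac2, the last variable exon of the alpha array and a C-type isoform, had 10.4, 15.2 and 13.0 CPM in DBL, 23.6, 32.7 and 32.9 CPM in TDonly, and 4.92, 4.17 and 3.05 CPM in ColGFP libraries. Its log2 fold changes were 1.66 ± 0.22 (DBL against ColGFP, edgeR adjusted p = 0.00102), -1.21 ± 0.21 (DBL against TDonly, adjusted p = 0.00196) and 2.87 ± 0.23 (TDonly against ColGFP, adjusted p = 8.49e-06). The calls of these 4 genes held in every alternative listed in the closing section.

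These levels moved with the endothelial markers. All 20 markers of the endothelium list were higher in DBL than in ColGFP cells, and all 20 were lower in DBL than in TDonly cells. Their summed level was 8155 to 10350 CPM in DBL, 24090 to 26760 CPM in TDonly and 1467 to 2192 CPM in ColGFP libraries, with no marker at 0. As a percentage of the mean of TDonly cells, Cdh5 stood at 34.2 ± 5.44% in DBL and 6.47 ± 1.38% in ColGFP cells (SD, n = 3 each). Pcdh1 stood at 35.2 ± 3.84% in DBL and 6.78 ± 0.865% in ColGFP cells, and Pcdh12 at 38.0 ± 1.00% in DBL and 8.51 ± 0.867% in ColGFP cells. The percentages of Pcdh17 were 36.9 ± 3.43% in DBL and 11.5 ± 1.39% in ColGFP cells, and those of Pcdhac2 were 43.3 ± 8.21% in DBL and 13.6 ± 3.17% in ColGFP cells. The summed endothelium list stood at 35.5 ± 5.0% in DBL and 7.11 ± 1.48% in ColGFP cells. The part of endothelial cells in these differences was not tested.

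**Figure D2:**
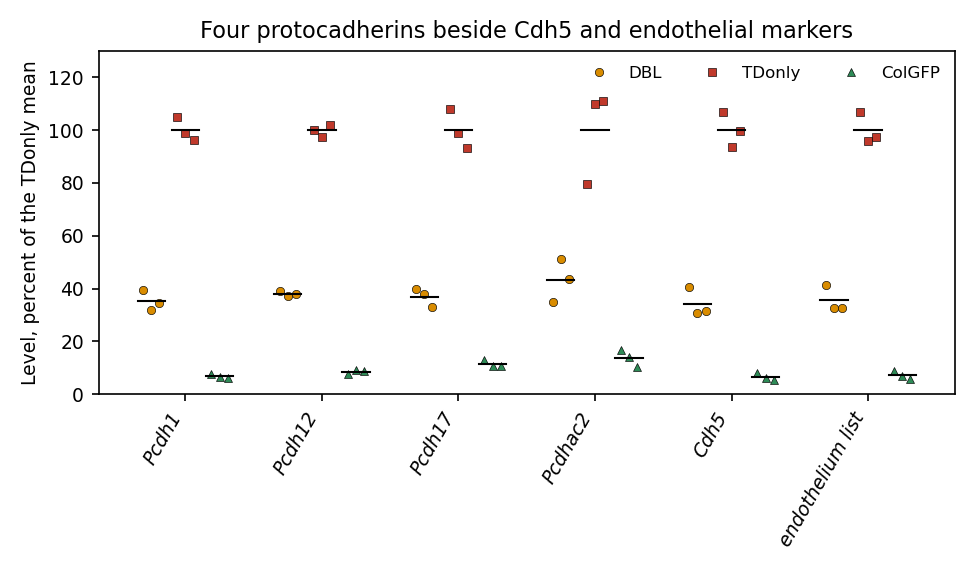
Levels of 4 protocadherins, Cdh5 and the summed endothelium list (horizontal axis) in every library, as a percentage of the TDonly mean (vertical axis); points are libraries and bars are population means. DBL means lie at 34.2% to 43.3% and ColGFP means at 6.47% to 13.6% for every item shown.

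Of the classical cadherins described individually, 3 had their highest mean in ColGFP cells, as did Cdh6 at low counts. Cdh4 (chr2:179442431-179899373), retinal cadherin of type I, had 11.02, 13.4 and 12.2 CPM in DBL, 12.8, 12.4 and 12.6 CPM in TDonly, and 155.9, 93.5 and 126.5 CPM in ColGFP libraries. DBL and TDonly libraries overlapped, and every ColGFP library was above all of them. Cdh4 was 10.3-fold lower in DBL than in ColGFP cells (log2 -3.36 ± 0.18, edgeR adjusted p = 1.03e-05) and 9.95-fold lower in TDonly than in ColGFP cells (adjusted p = 8.61e-07), the steepest of all lower calls of a member in DBL against ColGFP cells. In that comparison 10 of 12 alveolar fibroblast markers and 7 of 12 smooth muscle and myofibroblast markers were lower too. In DBL against TDonly cells the lists and Cdh4 parted. There 10 and 11 of the 12 markers were higher and 0 lower, whereas Cdh4 did not pass (log2 -0.05 ± 0.17, edgeR adjusted p = 0.863). The smooth muscle and myofibroblast list summed to 1262 to 1443 CPM in DBL, 371 to 492 CPM in TDonly and 4055 to 6997 CPM in ColGFP libraries, with no marker at 0 in all libraries of a population. The highest library of that list, ColGFP replicate 1, was also the highest for Cdh4, and the part of these cells in the difference was not tested.

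Cdh11 (chr8:102632095-102785642), the type II cadherin of mesenchymal cells, had 258, 295 and 286 CPM in DBL, 20.0, 76.7 and 76.9 CPM in TDonly, and 635, 669.9 and 675 CPM in ColGFP libraries. The 3 populations did not overlap, and TDonly replicate 1 was the lowest library. Cdh11 was 4.84-fold higher in DBL than in TDonly cells (log2 2.27 ± 0.41, edgeR adjusted p = 0.00237) and 11.4-fold lower in TDonly than in ColGFP cells (adjusted p = 0.000121). Between DBL and ColGFP cells the log2 fold change was -1.24 ± 0.39, which did not pass (adjusted p = 0.0678). Without TDonly replicate 1 it passed at the same size, -1.24 (adjusted p = 2.21e-05). That library is in neither population compared and acts through the fit, which takes all 9 libraries together. With only DBL and ColGFP libraries fitted, Cdh11 also passed, at -1.225 (edgeR adjusted p = 0.000247). The values were -1.30 among the replicate 1 libraries and -1.20 in the second series. TDonly replicate 1 was also the lowest library for the summed alveolar fibroblast markers, at 2399 CPM beside 3871 CPM in each of the other TDonly libraries.

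Cdh22 (chr2:165111507-165234853), another type II cadherin, had 2.90, 3.29 and 3.47 CPM in DBL, 0.156, 0.881 and 0.659 CPM in TDonly, and 4.79, 10.1 and 8.92 CPM in ColGFP libraries. The order of the populations was that of Cdh11, with no overlap. The log2 fold changes were 2.51 ± 0.48 in DBL against TDonly cells (edgeR adjusted p = 0.00350) and -3.80 ± 0.49 in TDonly against ColGFP cells (adjusted p = 0.000161). In DBL against ColGFP cells it was -1.30 ± 0.41 (adjusted p = 0.0685). It passed without TDonly replicate 1, at -1.29 (adjusted p = 0.0118), or without ColGFP replicate 1, at -1.53 (adjusted p = 0.0340). With only DBL and ColGFP libraries fitted it passed at -1.28 (adjusted p = 0.0211).

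A set of 6 delta protocadherins was low in TDonly cells and high in both collagen reporter populations. Pcdh7 (chr5:57717967-58133230), NF-protocadherin of the delta-1 group, had 114.8, 110.8 and 110.2 CPM in DBL, 29.1, 29.4 and 28.7 CPM in TDonly, and 126.7, 111.8 and 107.7 CPM in ColGFP libraries. DBL and ColGFP libraries overlapped, and both lay far above the TDonly libraries, 3.85-fold and 3.97-fold on the fitted scale (edgeR adjusted p = 2.90e-05 for DBL and 3.37e-07 for ColGFP). The difference between DBL and ColGFP cells was -0.04 ± 0.08 on the log2 scale (adjusted p = 0.792). Exons of Pcdh7, Pcdh10 and Pcdh19 overlap other gene models over 2235, 154 and 57 bases, and without a stated strand setting reads there cannot be assigned to a gene with certainty.

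Pcdh9 (chr14:93013410-93890679), also delta-1, had 8.12, 10.9 and 11.9 CPM in DBL, 0.468, 1.04 and 1.01 CPM in TDonly, and 8.50, 13.9 and 16.6 CPM in ColGFP libraries. It was 12.3-fold higher in DBL than in TDonly cells and 15.5-fold lower in TDonly than in ColGFP cells (edgeR adjusted p = 0.000123 and 1.89e-05). Pcdh11x, the X-linked delta-1 gene, had 2.21, 3.69 and 2.83 CPM in DBL, 0.0390, 0.361 and 0.176 CPM in TDonly, and 1.74, 2.54 and 1.71 CPM in ColGFP libraries. The TDonly level of Pcdh11x is near the floor of 3 counts, so its log2 fold change of 3.89 ± 0.53 in DBL against TDonly cells (edgeR adjusted p = 0.000544) depends on few reads. Pcdh10, OL-protocadherin of the delta-2 group, had 3.93, 3.60 and 3.67 CPM in DBL, 0.468, 0.681 and 1.14 CPM in TDonly, and 1.70, 3.45 and 3.56 CPM in ColGFP libraries. Every DBL library was above every TDonly library (log2 2.29 ± 0.38, edgeR adjusted p = 0.00161), and TDonly was below ColGFP cells (log2 -1.92 ± 0.39, adjusted p = 0.00270).

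In Pcdh18 and Pcdh19, ColGFP replicate 1 stood apart from the other ColGFP libraries. Pcdh18 (chr3:49743296-49757325), delta-2, had 77.8, 118.6 and 110.2 CPM in DBL, 19.1, 31.4 and 32.4 CPM in TDonly, and 29.1, 77.9 and 78.5 CPM in ColGFP libraries. That library lay within the TDonly range. The log2 fold changes were 1.89 ± 0.37 in DBL against TDonly cells (edgeR adjusted p = 0.00373), -1.16 ± 0.36 in TDonly against ColGFP cells (adjusted p = 0.0259) and 0.73 ± 0.36 in DBL against ColGFP cells (adjusted p = 0.230). The last was 1.42 among the replicate 1 libraries and 0.56 in the second series, where it passed (adjusted p = 3.30e-05).

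Pcdh19 (chrX:133582860-133688987), the delta-2 gene known from an X-linked epilepsy, had 28.5, 44.3 and 43.0 CPM in DBL, 5.11, 4.33 and 6.51 CPM in TDonly, and 5.64, 19.7 and 20.5 CPM in ColGFP libraries. Every DBL library was above all others, and ColGFP replicate 1 lay within the TDonly range. Pcdh19 was 7.26-fold higher in DBL than in TDonly cells (edgeR adjusted p = 0.000975) and 2.87-fold lower in TDonly than in ColGFP cells (adjusted p = 0.0159). Its log2 fold change of 1.34 ± 0.41 in DBL against ColGFP cells did not pass (adjusted p = 0.0577), but passed in the second series at 1.13 (adjusted p = 3.67e-06) and without ColGFP replicate 1 at 0.96 (adjusted p = 0.0203). In TDonly against ColGFP cells, the call of Pcdh18 was lost without TDonly replicate 1, ColGFP replicate 2 or ColGFP replicate 3 (log2 -0.99 to -0.95), and that of Pcdh19 without TDonly replicate 2, ColGFP replicate 2 or ColGFP replicate 3 (log2 -1.39 to -1.27). With limma-voom both calls were lost as well, at -1.05 (adjusted p = 0.0540) for Pcdh18 and -1.29 (adjusted p = 0.0799) for Pcdh19. The summed adventitial fibroblast list moved with these genes: it was 7062 to 9090 CPM in DBL and 1423 to 1775 CPM in TDonly libraries, and 2019, 5258 and 5097 CPM in ColGFP replicates 1, 2 and 3. The 12 markers of that list split into 4 higher and 0 lower in DBL against ColGFP cells and 2 higher and 9 lower in TDonly against ColGFP cells. None of them was at 0 in all libraries of a population, and their part was not tested.

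**Figure D3:**
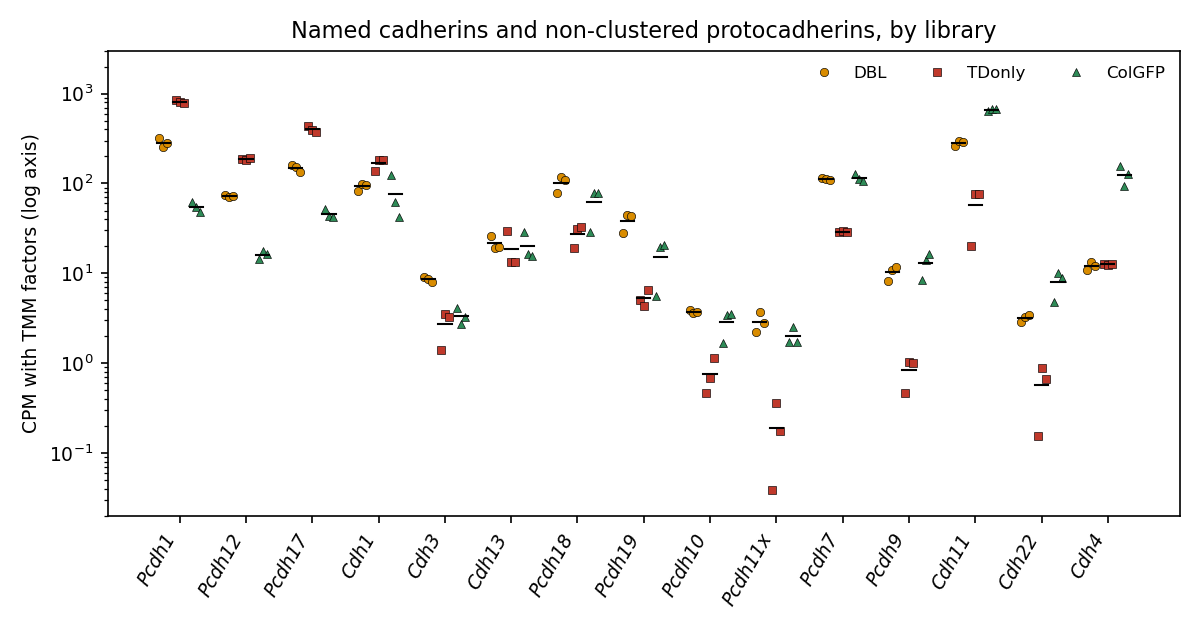
CPM with TMM factors (vertical axis, log scale) of the cadherins and non-clustered protocadherins described individually (horizontal axis), with a point for each library and a bar for each population mean. Pcdh1, Pcdh12 and Pcdh17 are highest in TDonly libraries, Cdh4 is high in ColGFP libraries alone (mean 125 CPM beside 12.2 CPM in DBL cells), and Pcdh7, Pcdh9 and Pcdh11x are low in TDonly libraries.

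Cdh3 was the single member higher in DBL cells than in both other populations, which held for 0.868% of all genes tested. No member was lower than in both, which held for 0.206% of all genes tested (edgeR, whereas DESeq2 gave 1). The closing section gives the count of higher members under other fits, which was not always 1. In Pcdh19 and Cdh2 too, every DBL library was above all others. They passed against TDonly cells but not against ColGFP cells (edgeR adjusted p = 0.0577 and 0.0561). Cdh3 (chr8:106510891-106557297), placental cadherin, had 9.07, 8.56 and 8.08 CPM in DBL, 1.40, 3.52 and 3.30 CPM in TDonly, and 4.07, 2.72 and 3.28 CPM in ColGFP libraries. All DBL libraries were above all others. The log2 fold change was 1.35 ± 0.31 against ColGFP cells (edgeR adjusted p = 0.0175) and 1.65 ± 0.31 against TDonly cells (adjusted p = 0.00322). The call against ColGFP cells was lost under 5 of 19 alternatives, with adjusted p from 0.0519 to 0.0800. They were leaving out replicate 1 or replicate 3 of DBL, leaving out replicate 2 or replicate 3 of ColGFP, and a block described in the closing section. Mesothelial markers moved with Cdh3: 7 of 9 were higher in DBL than in ColGFP cells and 8 of 9 were higher in DBL than in TDonly cells. They summed to 725 to 830 CPM in DBL, 110.6 to 370 CPM in TDonly and 251 to 322.5 CPM in ColGFP libraries, none was at 0, and TDonly replicate 1 was lowest for both the list and Cdh3. The part of mesothelial cells was not tested.

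Cdh1 (chr8:106603351-106670246), epithelial cadherin, had 83.4, 99.9 and 95.1 CPM in DBL, 137.0, 184 and 181 CPM in TDonly, and 125, 62.7 and 42.9 CPM in ColGFP libraries. ColGFP replicate 1 was above every DBL library and the other ColGFP libraries were below them. TDonly was higher than ColGFP cells by 1.12 ± 0.33 on the log2 scale (edgeR adjusted p = 0.0189), a difference of 0.13 among the replicate 1 libraries and 1.77 in the second series. The call was lost without TDonly replicate 2, TDonly replicate 3 or ColGFP replicate 2. In DBL against TDonly cells the value was -0.85 ± 0.32 (adjusted p = 0.0769), and it passed in the second series at -0.86 (adjusted p = 8.49e-06). In DBL against ColGFP cells the value was 0.27 ± 0.32 (adjusted p = 0.665). It was -0.59 among the replicate 1 libraries and 0.91 in the second series, where it passed (adjusted p = 1.3e-05). Epithelial markers followed the same libraries: 14 of 20 were higher and 0 lower in TDonly than in ColGFP cells. Their sum was 8121 to 8885 CPM in DBL, 12680 to 16240 CPM in TDonly, and 13050, 6545 and 4448 CPM in ColGFP replicates 1, 2 and 3. No epithelial marker was at 0, and the part of epithelial cells was not tested.

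Cdh13, the glycolipid-anchored T-cadherin and adiponectin receptor, had 25.8, 19.3 and 19.7 CPM in DBL, 29.7, 13.5 and 13.2 CPM in TDonly, and 28.6, 16.4 and 15.7 CPM in ColGFP libraries. It passed in no comparison of all libraries, and the replicate 1 library was the highest in each population. In the second series Cdh13 was higher in DBL than in TDonly cells by 0.59 on the log2 scale (edgeR adjusted p = 0.000838). The value among the replicate 1 libraries was -0.21. N-cadherin, Cdh2, had 5.41, 5.45 and 5.86 CPM in DBL, 2.96, 4.09 and 3.69 CPM in TDonly, and 3.44, 3.81 and 3.88 CPM in ColGFP libraries. All DBL libraries of Cdh2 were above the others, but the test passed against TDonly (edgeR adjusted p = 0.0219) and not against ColGFP cells (adjusted p = 0.0561). Cdh2 lies outside the rule for members described individually and was chosen after its values were seen. The other calls among low Cdh genes and Pcdh15, all with population means of at most 8.44 CPM, were Cdh6 (higher in DBL than in TDonly, lower in TDonly than in ColGFP cells), Cdh16 (lower in DBL than in TDonly cells), Cdh26 (higher in TDonly than in ColGFP cells) and Pcdh15 (lower in TDonly than in ColGFP cells). Cdh19, Cdh23, Cdh24 and Pcdh20 passed in no comparison and had population means of 0.729 to 2.95 CPM.

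Because CPM grows with transcript length, levels of different genes were compared per kilobase of annotated exon, without the alpha and gamma genes, whose exons are shared. In DBL cells the highest were Pcdh1 (32.4 CPM per kb), Cdh11 (31.4), Cdh1 (20.3) and Pcdh18 (19.1). In TDonly cells the order was Pcdh1 (92.1), Cdh1 (36.6), Pcdh12 (31.3) and Pcdh17 (30.9), all far below Cdh5 at 787 CPM per kb. In ColGFP cells it was Cdh11 (74.1), Cdh4 (17.3), Cdh1 (16.8) and Pcdhb9 (11.6). Neighbours in these orders such as Pcdh1 and Cdh11 in DBL cells, or Cdh4 and Cdh1 in ColGFP cells, differ by less than the spread between libraries.

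The clustered genes lie in the order alpha, beta, gamma on the plus strand of chromosome 18, from 36930184 to 37841873 (GRCm38), with Pcdh1 and Pcdh12 beyond the end of the gamma array. No source used here says how the counting treated reads of the shared constant exons of alpha and gamma genes. Such reads may have been dropped or given to single genes, so the alpha and gamma counts are uncertain, and Pcdhga10 has no exon base of its own in the annotation (0 of 4732). The beta genes do not share exons, except that Pcdhb12, Pcdhb21 and Pcdhb22 overlap other gene models, but they are similar in sequence. The tests below therefore compare populations within a gene, and where a count of an alpha or gamma gene is set beside that of another gene it describes the deposited counts only.

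Beta protocadherins were lowest in TDonly cells. Of 21 tested, 0 were higher and 19 lower in TDonly than in ColGFP cells, with a median log2 fold change of -1.29. In DBL against TDonly cells 10 were higher and 1, Pcdhb4, was lower (median 0.62), and in DBL against ColGFP cells 0 were higher and 7 lower (median -0.54). Leaving out DBL replicate 4 or ColGFP replicate 3 gave 4 lower in that comparison, the second series gave 13, and the closing section gives the count with the replicate number as a block. Over all genes tested with all libraries, 21.6% were higher and 24.0% lower in TDonly than in ColGFP cells. The shares were 17.3% higher and 12.6% lower in DBL against TDonly cells, and 8.04% higher and 6.47% lower in DBL against ColGFP cells. The summed beta level was 164, 190.2 and 171.8 CPM in DBL, 110.4, 106.8 and 105.5 CPM in TDonly, and 226, 273 and 282 CPM in ColGFP libraries. The 3 populations did not overlap in this sum. The DBL mean lay between the other means for 19 of 21 beta genes (90.5%), beside 46 of 70 members (65.7%) and 61.0% of all genes tested.

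Pcdhb9 changed most among the beta genes described individually. It had 15.0, 15.0 and 14.5 CPM in DBL, 3.82, 5.53 and 5.45 CPM in TDonly, and 28.9, 37.2 and 39.8 CPM in ColGFP libraries. No library of a population reached the range of another population. The log2 fold changes were -1.25 ± 0.17 in DBL against ColGFP cells (edgeR adjusted p = 0.000915), 1.59 ± 0.17 in DBL against TDonly cells (adjusted p = 0.000196) and -2.84 ± 0.18 in TDonly against ColGFP cells (adjusted p = 2.03e-06). Pcdhb16 had 28.7, 34.0 and 29.2 CPM in DBL, 14.3, 12.7 and 14.1 CPM in TDonly, and 34.6, 39.3 and 41.0 CPM in ColGFP libraries. It was 2.23-fold higher in DBL than in TDonly cells (edgeR adjusted p = 0.000118) and 2.79-fold lower in TDonly than in ColGFP cells (adjusted p = 6.67e-06), while DBL and ColGFP cells did not pass (adjusted p = 0.0877).

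Pcdhb22 was called in all 3 comparisons, as was Pcdhb9. Its levels were 11.7, 10.1 and 13.0 CPM in DBL, 5.85, 7.61 and 5.67 CPM in TDonly, and 17.1, 17.4 and 21.2 CPM in ColGFP libraries. Its log2 fold changes were -0.68 ± 0.16 in DBL against ColGFP cells (edgeR adjusted p = 0.0215) and 0.86 ± 0.17 in DBL against TDonly cells (adjusted p = 0.00364), and the first was lost under 4 of 19 alternatives, among them leaving out replicate 1 or replicate 3 of DBL, or replicate 3 of ColGFP. Pcdhb17, Pcdhb19 and Pcdhb20 were higher in DBL than in TDonly cells by 0.67 to 0.95 on the log2 scale and did not pass against ColGFP cells, and the call of Pcdhb20 was lost under 6 of 19 alternatives. Pcdhb7, Pcdhb11 and Pcdhb18 were lower in DBL than in ColGFP cells by -0.93 to -0.73 and did not pass against TDonly cells. Against ColGFP cells, the call of Pcdhb11 was lost under 5 of 19 alternatives, that of Pcdhb18 under 2 and that of Pcdhb7 under 1. Pcdhb14 had 11.02, 12.4 and 10.4 CPM in DBL, 8.57, 6.57 and 6.99 CPM in TDonly, and 10.5, 10.6 and 12.0 CPM in ColGFP libraries, so that DBL and ColGFP libraries overlapped. Beta genes without a call in TDonly against ColGFP cells were Pcdhb15 and Pcdhb4, whose log2 fold changes were 0.36 and 0.02.

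The remaining beta genes described individually showed 2 patterns. Pcdhb17 had 22.6, 27.04 and 22.01 CPM in DBL, 16.6, 13.5 and 14.9 CPM in TDonly, and 26.6, 34.2 and 32.5 CPM in ColGFP libraries. Pcdhb19 had 7.66, 11 and 11.3 CPM in DBL, 5.03, 5.49 and 4.97 CPM in TDonly, and 10.1, 13.5 and 14.5 CPM in ColGFP libraries. Pcdhb20 had 6.6, 12.6 and 9.29 CPM in DBL, 5.88, 5.25 and 4.57 CPM in TDonly, and 11.3, 16.5 and 16.4 CPM in ColGFP libraries. In these 3 genes every DBL library was above every TDonly library, while DBL and ColGFP libraries overlapped. Pcdhb7 had 6.44, 6.53 and 6.18 CPM in DBL, 4.99, 4.01 and 5.67 CPM in TDonly, and 13.1, 13.01 and 9.52 CPM in ColGFP libraries. Pcdhb11 had 5.15, 5.63 and 5.45 CPM in DBL, 3.58, 4.77 and 2.64 CPM in TDonly, and 9.03, 9.5 and 12.4 CPM in ColGFP libraries. Pcdhb18 had 5.91, 7.75 and 6.1 CPM in DBL, 6.86, 6.05 and 5.89 CPM in TDonly, and 11, 10.4 and 11.2 CPM in ColGFP libraries. In these 3 genes every DBL library was below every ColGFP library, and DBL and TDonly libraries overlapped in Pcdhb18 but not in Pcdhb7 or Pcdhb11. Beta protocadherins carry no constant domain, so that their cytoplasmic tails are short.

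**Figure D4:**
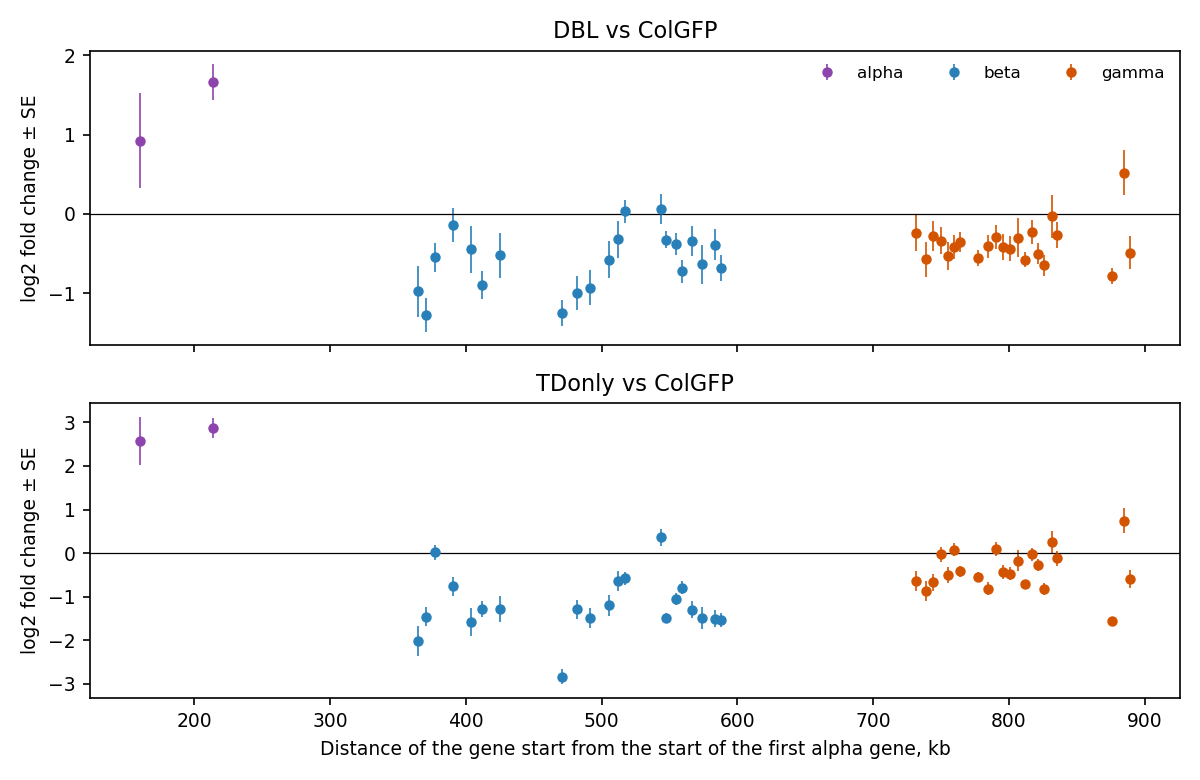
Log2 fold change with its SE (vertical axis) of each tested clustered protocadherin with an annotated position against the distance of its start from the first alpha gene in kb (horizontal axis), for DBL against ColGFP (top) and TDonly against ColGFP (bottom). Both alpha genes shown lie above 0, most beta genes lie between -2.02 and -0.58 in the lower panel with Pcdhb9 at -2.84, and the gamma genes lie nearer 0 except Pcdhgc3 at -1.57.

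Gamma protocadherins differed less, apart from Pcdhgc3. Of 22 tested, 0 were higher and 11 lower in TDonly than in ColGFP cells (median log2 fold change -0.45), and 0 were higher and 5 lower in DBL than in ColGFP cells (median -0.41). In DBL against TDonly cells 1 was higher, Pcdhgc3, and 1 was lower, Pcdhgb2, with a median of -0.0024. The call of Pcdhgb2 was lost under 11 of 19 alternatives. Without TDonly replicate 1, 4 were higher and 0 lower in DBL than in TDonly cells. In TDonly against ColGFP cells, 7 were lower without TDonly replicate 2 and 7 without TDonly replicate 3. With all libraries, 21.6% of all genes tested were higher and 24.0% lower in TDonly than in ColGFP cells. The shares were 8.04% higher and 6.47% lower in DBL against ColGFP cells, and 17.3% higher and 12.6% lower in DBL against TDonly cells. The 19 A- and B-type genes summed to 249.8, 224 and 232 CPM in DBL, 275, 221 and 224 CPM in TDonly, and 301, 310.3 and 337 CPM in ColGFP libraries. The DBL and TDonly libraries of this sum overlapped, and all ColGFP libraries were higher. The DBL mean lay between the others for 12 of 22 gamma genes and was the lowest for the other 10.

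Pcdhgc3, a C-type gamma isoform that is widely expressed, had 312, 307 and 321.5 CPM in DBL, 171, 189.7 and 186.5 CPM in TDonly, and 473, 559.9 and 586 CPM in ColGFP libraries. The populations did not overlap. Its log2 fold changes were -0.78 ± 0.11 in DBL against ColGFP cells (edgeR adjusted p = 0.00102), 0.78 ± 0.11 in DBL against TDonly cells (adjusted p = 0.000517) and -1.57 ± 0.11 in TDonly against ColGFP cells (adjusted p = 3.49e-06). It took 52.8% to 56.2% of all gamma counts in DBL, 35.9% to 44.1% in TDonly and 59.3% to 62.8% in ColGFP libraries, a share that depends on how reads of the constant exons were assigned. Pcdhgc4, the next C-type gene, had 14.1, 9.42 and 8.04 CPM in DBL, 17.5, 9.69 and 9.36 CPM in TDonly, and 7.74, 6.29 and 7.90 CPM in ColGFP libraries. It did not pass in TDonly against ColGFP cells (log2 0.74 ± 0.29, edgeR adjusted p = 0.0616). Pcdhgc5 was lower in TDonly than in ColGFP cells (log2 -0.60 ± 0.20, edgeR adjusted p = 0.0359), a call lost under 7 of 19 alternatives.

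Pcdhgb6, a B-type gene, had 36.0, 32.7 and 30.9 CPM in DBL, 29.5, 30.6 and 30.2 CPM in TDonly, and 45.4, 49.4 and 53.6 CPM in ColGFP libraries. It was lower than ColGFP in both Foxf1 reporter populations, by -0.58 ± 0.10 in DBL (edgeR adjusted p = 0.00352) and -0.72 ± 0.10 in TDonly cells (adjusted p = 0.000228). Pcdhga6 and Pcdhga11 gave the same calls, with log2 fold changes of -0.56 and -0.65 in DBL and -0.54 and -0.83 in TDonly against ColGFP cells. Pcdhgb7 was lower in DBL than in ColGFP cells by -0.50 ± 0.13 (adjusted p = 0.0347), a call lost under 9 of 19 alternatives. Pcdhga3, Pcdhga4, Pcdhga5, Pcdhga7 and Pcdhgb5 passed in TDonly against ColGFP cells alone, at -0.81 to -0.42, and the calls of Pcdhga4, Pcdhga5 and Pcdhgb5 were lost under 9, 4 and 7 of 19 alternatives. Pcdhga8, Pcdhga9, Pcdhga10, Pcdhga12 and Pcdhgb4 passed in no comparison of all libraries and had population means of 8.48 to 18.5 CPM. In the second series Pcdhga8 and Pcdhga9 were lower in DBL than in ColGFP cells (edgeR adjusted p = 0.0133 and 0.0217). They were also lower in TDonly than in ColGFP cells there (adjusted p = 0.00104 and 0.036), as was Pcdhga12 (adjusted p = 0.0247). Replicate 1 of TDonly was the highest TDonly library for the gamma A and B sum, and the median gamma fold change in TDonly against ColGFP cells was -0.56 without it.

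The gamma isoforms differ in their extracellular repeats and share the cytoplasmic tail encoded by the constant exons. Pcdhga6 had 14.8, 16 and 16.5 CPM in DBL, 15.4, 15.9 and 16.4 CPM in TDonly, and 22.6, 22.4 and 24.4 CPM in ColGFP libraries. Pcdhga11 had 12.8, 12.9 and 13.7 CPM in DBL, 13.3, 9.81 and 11.8 CPM in TDonly, and 19.4, 19.6 and 22.9 CPM in ColGFP libraries. Pcdhgb7 had 16.9, 14.8 and 14.7 CPM in DBL, 19.2, 17.5 and 17.6 CPM in TDonly, and 22.9, 17.97 and 24.6 CPM in ColGFP libraries. Every DBL library was below every ColGFP library in these 3 genes, and in Pcdhgb7 every DBL library was also below every TDonly library. Pcdhga3 had 11.3, 11.1 and 12.1 CPM in DBL, 10.9, 9.13 and 6.16 CPM in TDonly, and 13.6, 12.8 and 15.5 CPM in ColGFP libraries. Pcdhga7 had 14.1, 13.3 and 13.1 CPM in DBL, 11.7, 9.73 and 9.1 CPM in TDonly, and 14.9, 19.6 and 19.3 CPM in ColGFP libraries. Pcdhga5 had 12.2, 10.5 and 11.9 CPM in DBL, 12.2, 10.98 and 9.98 CPM in TDonly, and 14.4, 16.1 and 13.8 CPM in ColGFP libraries. Every TDonly library was below every ColGFP library here, and below every DBL library in Pcdhga3 and Pcdhga7. Pcdhga4 had 8.85, 10.5 and 9.93 CPM in DBL, 12.5, 8.25 and 9.01 CPM in TDonly, and 12.6, 13.5 and 16.3 CPM in ColGFP libraries. Pcdhgb5 had 10.3, 11 and 10.9 CPM in DBL, 12.98, 9.57 and 8.88 CPM in TDonly, and 14.7, 15.6 and 13.3 CPM in ColGFP libraries. Pcdhgc5 had 14.8, 8.43 and 10.5 CPM in DBL, 12.3, 9.65 and 9.23 CPM in TDonly, and 15.7, 15.5 and 16.2 CPM in ColGFP libraries. Every TDonly library was again below every ColGFP library, TDonly replicate 1 was the highest TDonly library, and DBL and TDonly libraries overlapped.

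Pcdhgb2 had 16.1, 14.01 and 12.03 CPM in DBL, 22.7, 16.6 and 19.9 CPM in TDonly, and 17.75, 18.4 and 20.1 CPM in ColGFP libraries. Pcdhgb4 had 12.3, 9.64 and 11.5 CPM in DBL, 17.03, 14.02 and 12.6 CPM in TDonly, and 13.01, 14.9 and 12.98 CPM in ColGFP libraries. In both genes every DBL library was below every TDonly and every ColGFP library, and TDonly and ColGFP libraries overlapped. Pcdhga8 had 11.5, 9.33 and 10.3 CPM in DBL, 12.7, 8.85 and 9.45 CPM in TDonly, and 13.1, 14.8 and 13.9 CPM in ColGFP libraries. Pcdhga9 had 10.9, 6.67 and 7.92 CPM in DBL, 11.3, 8.01 and 8.44 CPM in TDonly, and 8.63, 9.07 and 13.6 CPM in ColGFP libraries. Every ColGFP library of Pcdhga8 was above the libraries of the other populations, whereas the populations overlapped in Pcdhga9. Pcdhga10 had 17.01, 14.96 and 15.7 CPM in DBL, 21.7, 15.4 and 17.4 CPM in TDonly, and 20.7, 15.97 and 18.99 CPM in ColGFP libraries. Pcdhga12 had 13.04, 12.5 and 13.6 CPM in DBL, 16.7, 13.8 and 12.5 CPM in TDonly, and 12.9, 15.2 and 18.9 CPM in ColGFP libraries. All 3 populations overlapped in these genes.

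**Figure D5:**
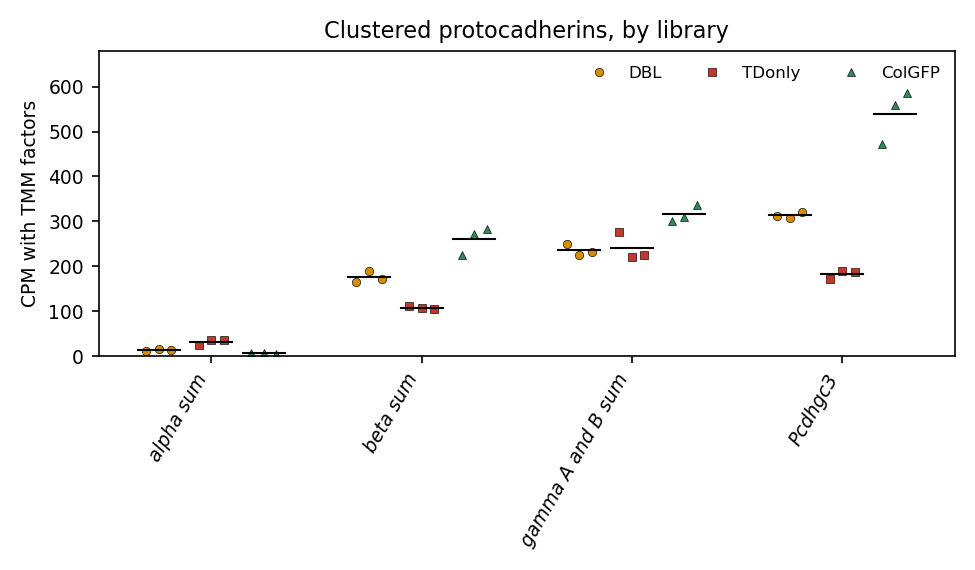
Summed CPM with TMM factors (vertical axis) of the alpha genes, the beta genes, the A- and B-type gamma genes and of Pcdhgc3 alone (horizontal axis) in every library, with bars at the population means. TDonly libraries are highest for the alpha sum and lowest for the beta sum and Pcdhgc3, where DBL libraries lie in between, and DBL and TDonly libraries overlap for the gamma A and B sum.

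Within the alpha array, Pcdhac2 took 89.9% to 91.6% of counts in DBL, 92.5% to 92.9% in TDonly and 54.1% to 76.4% in ColGFP libraries. Of 13 alpha genes 3 were tested, and the alpha genes summed to 11.3 to 16.8 CPM in DBL, 25.5 to 35.4 CPM in TDonly and 5.64 to 6.44 CPM in ColGFP libraries. Pcdhac1 averaged 0.352 CPM in DBL, 1.11 CPM in TDonly and 0.178 CPM in ColGFP cells. Pcdhac1 was lower in DBL than in TDonly cells (edgeR adjusted p = 0.0305) and higher in TDonly than in ColGFP cells (adjusted p = 0.00380). The third tested gene, Pcdha10, passed in no comparison.

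The 21 members not tested had 0 to 15 counts in any library. They were Cdh7, Cdh8, Cdh9, Cdh10, Cdh12, Cdh15, Cdh17, Cdh18, Cdh20, Pcdh8, Pcdhb1 and 10 alpha genes. Most are known from neurons, Cdh15 from skeletal muscle and Cdh17 from the intestine. In the edgeR fit without a filter, 3 of the 21 were higher and 0 lower in DBL than in TDonly cells, 0 were higher and 1 lower in TDonly than in ColGFP cells, and none passed in DBL against ColGFP cells. Shares over all genes were not counted in that fit. In the filtered fit, 17.3% of all genes tested were higher and 12.6% lower in DBL than in TDonly cells. There 21.6% were higher and 24.0% lower in TDonly than in ColGFP cells. Cdh18 had 12, 6 and 5 counts in DBL, 0, 0 and 1 in TDonly, and 7, 4 and 10 in ColGFP libraries, and it passed in both comparisons with TDonly cells (adjusted p = 0.0119 for DBL and 0.00669 for ColGFP). Cdh9 had 14, 3 and 9 counts in DBL, 0, 0 and 1 in TDonly, and 0, 3 and 2 in ColGFP libraries, and Pcdh8 had 6, 6 and 14 counts in DBL, 0, 1 and 0 in TDonly, and 2, 1 and 0 in ColGFP libraries. These 3 genes were chosen after their values were seen, and their TDonly counts lie below the floor of 3.

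Of the proteins that bind the cadherin tail, 11 of 12 catenin and p120 family genes were tested. In DBL against ColGFP cells 5 were higher and 3 lower, in DBL against TDonly cells 2 were higher and 5 lower, and in TDonly against ColGFP cells 6 were higher and 4 lower. Over all genes tested, 14.5%, 29.9% and 45.5% differed in these comparisons in that order. Jup, plakoglobin of adherens junctions and desmosomes, averaged 398 CPM in DBL, 940.3 CPM in TDonly and 230.1 CPM in ColGFP cells and was called in all 3 comparisons. Ctnnd1, p120 catenin, which holds cadherins at the surface, averaged 531.5 CPM in DBL, 989 CPM in TDonly and 378 CPM in ColGFP cells, with log2 fold changes of 0.49 ± 0.10 in DBL against ColGFP cells (edgeR adjusted p = 0.00978) and -0.90 ± 0.10 in DBL against TDonly cells (adjusted p = 0.000231). Pkp4, a p120 relative, followed the same order at 87.5, 178 and 44.6 CPM. In each of these genes the order of the means was that of Cdh5, Pcdh1, Pcdh12 and Pcdh17.

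Among transcription factors known to repress Cdh1, 8 of 9 were tested, and in TDonly against ColGFP cells 2 were higher and 5 lower. Snai2 averaged 11.7 CPM in DBL, 6.43 CPM in TDonly and 26.9 CPM in ColGFP cells, and was lower in DBL than in ColGFP cells (log2 -1.20 ± 0.18, edgeR adjusted p = 0.00177). Snai1 was higher in DBL than in TDonly cells by 1.03 ± 0.20 (adjusted p = 0.00343). Zeb1 ran the other way, at 171, 219 and 119 CPM in DBL, TDonly and ColGFP cells. In DBL against ColGFP cells 1 of the 8 was higher and 1 lower, and in DBL against TDonly cells 5 were higher and 1 lower. Over all genes tested, 14.5% and 29.9% differed in these comparisons, and 45.5% in TDonly against ColGFP cells.

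The regulators of the clustered locus showed smaller differences. All 14 were tested, and 4 were higher and 2 lower in TDonly than in ColGFP cells, with 0 higher and 1 lower in each DBL comparison. Over all genes tested, 45.5% differed in TDonly against ColGFP cells, 14.5% in DBL against ColGFP cells and 29.9% in DBL against TDonly cells. Ctcf, whose protein joins the enhancers to the variable exon promoters, averaged 72.0 CPM in DBL, 84.5 CPM in TDonly and 67.1 CPM in ColGFP cells, a log2 fold change of 0.33 ± 0.08 in TDonly against ColGFP cells (edgeR adjusted p = 0.00693). Rad21, a cohesin subunit, gave 0.34 ± 0.09 there (edgeR adjusted p = 0.0138).

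Of the other cadherin superfamily genes, 15 of 21 were tested. In DBL against ColGFP cells 2 were higher and 3 lower, in DBL against TDonly cells 3 were higher and 3 lower, and in TDonly against ColGFP cells 7 were higher and 5 lower. The shares of all genes tested that differed were 14.5%, 29.9% and 45.5% in that order. Celsr2, a seven-pass cadherin of planar polarity, averaged 31.6 CPM in DBL, 77.4 CPM in TDonly and 11.2 CPM in ColGFP cells and was called in all 3 comparisons. Fat3, a giant atypical cadherin, averaged 33.2 CPM in DBL, 15.5 CPM in TDonly and 93.1 CPM in ColGFP cells and was also called in all 3.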

How the data were processed

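RNA-seq was analysed in 9 libraries of sorted mouse lung cells. Per the submitters' processing notes, the authors used cutadapt, TopHat, HTSeq and mm10; no source used here gives versions, annotation or strand setting. Per the labels' protocols, RNA was taken from frozen lungs for TruSeq libraries, while the series' design text describes sorted cells and depletion of ribosomal RNA. The deposited table holds raw counts per gene, not normalised by the authors. A further 3 columns that fit no sample's labels were left out.

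Genes passing edgeR's filterByExpr (minimum count 10) numbered 15550. Quasi-likelihood fits used all 9 libraries together, a coefficient for each population and TMM factors (edgeR 4.0.16, limma 3.58.1, R 4.3.3; 6 residual and 3.42 prior degrees of freedom). Tests were two-sided, with p-values adjusted by Benjamini and Hochberg's method across the genes tested at a threshold of 0.05. Gene positions and exon lengths came from GENCODE for GRCm38. In simulated data of this size for DBL against ColGFP, the recovered share was 54% for 100 genes altered 2-fold and 84% for another 100 altered 4-fold, with 11 false calls among 15383 genes. Only these genes were altered, in DBL libraries alone, whereas 14.5% of genes differed in the real comparison. No difference between the second series and the other libraries was simulated, so these shares need not hold for the real data. Depth limits the precision of low counts.

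Described individually were the 44 members reaching 10 CPM in a population mean, or among the 6 largest changes of a comparison that passed without overlap at 2 CPM or more. List genes are up to 3 per list by smallest adjusted p, at 5 CPM or more; 1 of them is not reported here. Members and lists were chosen with earlier results of these data known. Alternatives were DESeq2 (1.42.0), limma-voom, other scalings, filters, covariates and subsets of libraries.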

Additional observations from a re-analysis of the deposited data

How the results depend on the processing

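Alternatives were computed for 83 of the 132 values of members described individually, those that were called or at least 0.5 in log2 size, and none of the 83 reversed. Of the 72 called, 54 kept their call under every alternative. Among smaller uncalled values, signs differed in the second series, as for Cdh3 in TDonly against ColGFP cells (-0.30 in all libraries, 0.15 there). Higher members in DBL against ColGFP cells numbered 8 with the series as a covariate and 8 in the second series, where 27 were lower. Lower members in DBL against TDonly cells numbered 5 without a filter and 5 to 7 with single libraries left out. Members higher in DBL than in both other populations numbered 2 with library totals, 3 with DESeq2, 2 with limma-voom, 2 with a filter of 1 CPM in 3 libraries, 4 with the covariate, 3 in the second series, and 0 to 2 with single libraries left out. Members lower than in both numbered 1 with DESeq2 and 1 in the second series. The causes were not tested. With the replicate number as a block, 6 members were lower in DBL than in ColGFP cells and 4 lower in DBL than in TDonly cells. The block gave 2 beta genes lower in DBL than in ColGFP cells, ended 12 of the 72 calls, among them Cdh3 (adjusted p = 0.0800) and Pcdhb22 (adjusted p = 0.0802), and added 2. DBL replicate 4 is alone under its number, so in that fit it adds nothing to the comparisons between populations. Same-numbered libraries had correlations of deviations of 0.0156 to 0.527, and replicate numbers are not taken as a pairing. In the column names, DBL replicate 3 is followed by replicate 2 of the other populations, and DBL replicate 4 by their replicate 3. DBL replicate 3 gave 0.306 with TDonly replicate 2 and 0.232 with TDonly replicate 3. With ColGFP replicates 2 and 3 it gave 0.0143 and 0.0156. DBL replicate 4 gave 0.289 with TDonly replicate 2 and 0.340 with TDonly replicate 3. A pairing by column number was not tested. Low counts limit the genes near 3 counts per library.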

Other observations

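Genes whose products join cadherins to actin were called in both directions. Of 12 linkers, 5 were higher and 2 lower in DBL than in ColGFP cells, and 2 were higher and 5 lower in DBL than in TDonly cells. Over all genes tested, 8.04% were higher and 6.47% lower in the first comparison, and 17.3% higher and 12.6% lower in the second. Tjp1, the tight junction scaffold ZO-1, averaged 539 CPM in DBL, 1149 CPM in TDonly and 317 CPM in ColGFP cells. Zyx, zyxin of stressed junctions and focal adhesions, had the opposite order, with means of 232, 116 and 448 CPM in DBL, TDonly and ColGFP cells. Both were called in all 3 comparisons (edgeR adjusted p between 6.51e-07 and 0.000853).

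Of 12 genes of cadherin cleavage and turnover, 4 were higher and 0 lower in DBL than in ColGFP cells, and 0 were higher and 5 lower in DBL than in TDonly cells. Over all genes tested, 8.04% were higher and 6.47% lower in DBL than in ColGFP cells. The shares in DBL against TDonly cells were 17.3% higher and 12.6% lower. Numb, an endocytic adaptor, averaged 75.2 CPM in DBL, 166 CPM in TDonly and 40.0 CPM in ColGFP cells, and the metalloprotease gene Adam15 averaged 159.1, 311 and 84.5 CPM. Of 11 genes of protocadherin binding partners, 3 were higher and 0 lower in DBL than in ColGFP cells. Ptk2, focal adhesion kinase, which gamma protocadherins bind and inhibit, averaged 124.7 CPM in DBL, 217 CPM in TDonly and 78.3 CPM in ColGFP cells. Of 5 tested partners of 7D cadherins and T-cadherin, 2 were higher and 0 lower in DBL than in ColGFP cells, and Itga2, the integrin alpha 2 subunit, averaged 34.5, 88.6 and 10.2 CPM in DBL, TDonly and ColGFP cells. All 20 endothelial markers had the same order of means as Numb, Adam15, Ptk2 and Itga2, and their part in these differences was not tested.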
